A study of Arabidopsis thaliana with 28 samples.

Results

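The transgenic line DN96 was compared with the line DN89, both of which overexpress CBF2Δc, a truncated form of the transcription factor CBF2, in Arabidopsis thaliana of the accession Ws-2. Of 14574 features tested on an Affymetrix expression array, 127 were lower in DN96 at both temperatures and 5 were higher. A feature is a named gene or a probe set without a single annotated gene. It counted as lower at both temperatures if it was called lower in DN96 in a limma model with temperature as a blocking term and if both DN96 samples lay under both DN89 samples in the warm and in the cold. A call needed a difference of at least 2-fold and an adjusted p below 0.05, by the Benjamini-Hochberg method over the 14574 features. The 127 features were 62 named genes, 2 probe sets listed for several genes and 63 probe sets without an annotated gene, all of which are kept here under their probe set identifiers. Each of the 127 had passed the detection filter, a log2 value above 4 in at least 4 of the 28 arrays of the series.

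The comparison used 8 samples of RNA from the whole aerial part of seedlings, 2 of each line at each temperature. Warm seedlings of both lines grew on agar at 22 °C for 11 d, with the light always on at some 100 µmol m-2 s-1. Cold seedlings were then kept at 4 °C for 24 h, at some 35 µmol m-2 s-1, so temperature and light changed together. The reference groups were 4 warm and 4 cold wild-type Ws-2 samples and 4 warm samples each of plants overexpressing full-length CBF1 (CBF1OX), CBF2 (CBF2OX) or CBF3 (CBF3OX), each from 2 lines. The sources used here do not give the promoter behind the constructs. Each side of the line comparison is 1 transgenic line, so the inserted gene's position, its expression and anything that differed in growth or handling of the lines cannot be told apart. The labels call the samples biological replicates, and p-values measure only the spread between these samples, which may be partly technical.

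The CBF proteins belong to the AP2/ERF transcription factors and bind the CRT/DRE element in promoters of cold-regulated genes. Their targets include dehydrins and other proteins that protect cells during freezing. Class III peroxidases are secreted enzymes that act on cell wall phenolics and extensins, and many members of this large plant family are known from roots. Extensins and other hydroxyproline-rich glycoproteins are structural wall proteins, and lipid transfer proteins of the GPI-anchored class are associated with cuticle and suberin.

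An unnamed probe set that followed the CBF2 constructs was high in both lines. CBF2 had no named probe set, and 254075_at was picked from these same samples. Of the features called higher than the warm wild type in CBF2OX, warm DN89 and warm DN96, it had the largest rise in CBF2OX. Its high warm values thus follow from the choice, and 254075_at is no separate evidence that the constructs are expressed. It stood at 12.91 and 13.15 in warm DN89, 13.55 and 13.58 in warm DN96, 13.40 and 13.64 in cold DN89, and 13.63 and 13.54 in cold DN96, on the log2 scale of all values here. The wild type was at 3.41 ± 0.25 in the warm and 7.47 ± 0.87 in the cold (SD, n = 4). All 8 transgenic samples lay above every wild-type sample. The line difference was 0.30 ± 0.13 (log2 difference ± SE, limma adjusted p = 0.349), with the warm DN96 samples above the warm DN89 samples and the cold samples of the lines overlapping. The highest value of any probe set in the series was 14.53, and the signal of the construct and that of the native gene cannot be told apart here.

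The difference between the lines ran almost wholly in one direction. The 127 features called lower were 0.871% of those tested, and the 5 called higher were 0.0343%. The fit alone made these 132 calls, and all of them also met the condition that the samples of the lines stood apart at both temperatures, so the shares of the features lower (0.871%) and higher (0.0343%) at both temperatures were the same. The median difference over the 127 features was -1.24, with a range from -2.83 to -1.0, against a median of -0.02 over all features. Without the filter on low values, 9 features were lower and 1 higher at both temperatures. Leaving out 1 sample lowered the count of features lower at both temperatures to between 54 and 120. It was 54 without DN89 warm replicate 1, 63 without DN89 warm replicate 2, 57 without DN96 warm replicate 4, 84 without DN89 cold replicate 1 and 61 without DN96 cold replicate 4.

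At each temperature alone, with 2 samples a side, 27 features (0.185%) were called lower in warm DN96 and 5 (0.0343%) in cold DN96. These counts were unstable. A fit on all 28 samples called 133 in the warm and 159 in the cold, and leaving out any 1 sample gave 0 at the temperature it came from, so no order of the temperatures is read from them. The median over the 127 features was -1.34 in the warm and -1.19 in the cold, and the fall was larger in the warm for 76 of them. A test of whether the line difference itself differed between temperatures called 0 features with limma, the smallest adjusted p being 0.593. In that test 736 of the 14574 features had an unadjusted p below 0.05, about the number expected without any difference. The smallest adjusted p of that test among the 127 was 0.941. Within DN96, replicate 4 lay below replicate 3 for 100 of the 127 features in the warm and for 79 in the cold. The same count over all features was not made. The mean of DN96 was under the detection level of 4 at both temperatures for 2 of the 127 and at either temperature for 16.

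**Figure D1:**
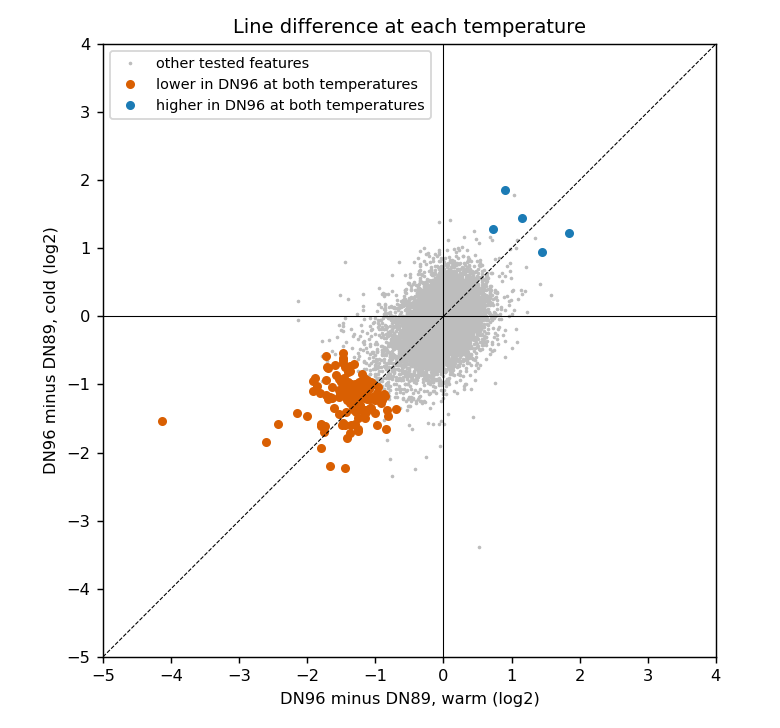
The log2 difference DN96 minus DN89 in the warm (horizontal axis) and in the cold (vertical axis) for 14574 tested features, with 2 samples of each line behind each axis and the dashed line marking equal differences. The 127 features lower at both temperatures lie in the lower left and the 5 higher at both temperatures in the upper right.

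The features closest to the fold threshold were a narrow step apart. AT5G42860 (-1.0 ± 0.11) and AT5G49350 (-1.0 ± 0.20) lay just inside it. The unnamed probe sets 266290_at (-0.98 ± 0.17) and 253606_at (-0.98 ± 0.13) lay just outside it.

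Class III peroxidase genes made up 7 of the 20 named genes with the largest falls. The family accounted for 37 of the 7894 named genes tested, and the 20 were chosen by their fall. AT4G26010 stood at 8.40 and 8.26 in warm DN89 against 6.88 and 6.47 in warm DN96, and at 5.65 and 5.79 in cold DN89 against 3.52 and 3.52 in cold DN96. In the warm the DN89 values fell inside the wild-type range of 8.14 to 8.68, and in the cold both lines lay below every wild-type sample (6.08 to 6.41). The DN96 values lay below the DN89 values and the wild type at both temperatures. The line difference was -1.93 ± 0.15, or 3.80-fold lower in DN96 (limma adjusted p = 0.00412). The cold DN96 values were equal and under the detection level of 4, which limits this fold difference.

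AT5G15180, another class III peroxidase gene, was at 6.37 and 6.19 in warm DN89 and at 4.26 and 4.31 in warm DN96. In the cold it was at 5.87 and 5.57 in DN89 and at 4.28 and 4.23 in DN96. The 4 DN96 samples were close to each other and near the detection level, and the wild type ranged from 5.66 to 6.18 in the warm, just below both DN89 samples, and from 4.70 to 5.89 in the cold. DN96 differed from DN89 by -1.73 ± 0.14 (limma adjusted p = 0.00412).

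The peroxidase gene AT4G30170 stood at 9.52 and 9.20 in warm DN89 against 7.81 and 7.31 in warm DN96, and at 8.65 and 8.24 against 7.06 and 6.61 in the cold. Both DN96 samples were below the lowest wild-type sample at each temperature (8.82 in the warm, 7.93 in the cold), whereas the DN89 samples overlapped the wild type at both. The difference was -1.70 ± 0.17 (limma adjusted p = 0.00647). The other 4 peroxidase genes among the 20 were AT5G17820 (-1.53), AT5G64100 (-1.42), AT3G01190 (-1.41) and Prx37 (-1.40). In warm DN89 Prx37 was at 7.93 and 8.12, above the wild-type range of 6.77 to 7.26.

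The whole class III peroxidase family, a list added after the values had been seen, was shifted in the same direction by a smaller amount. Of 73 family loci, 55 had a named probe set and 37 were tested, of which 10 were called lower in DN96 and 1 higher, against 0.871% and 0.0343% of all features. The median over the 37 was -0.57 (-0.82 in the warm and -0.36 in the cold), and 29 of them, or 78.4%, lay below 0, against 54.3% of all features. The 3 called genes outside the 20 were AT5G66390 (-1.21), AT3G49960 (-1.18) and AT1G30870 (-1.01), named after their values were seen. AT1G68850 (-1.20 ± 0.26, limma adjusted p = 0.0675) and AT4G11290 (-1.07 ± 0.28, adjusted p = 0.116), likewise chosen after their values were seen, passed the fold but not the p-value. The count called lower was 6 without DN89 warm replicate 1 and 6 without DN96 warm replicate 4. Members of this family are similar in sequence, and how far their probe sets share signal was not tested.

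**Figure D2:**
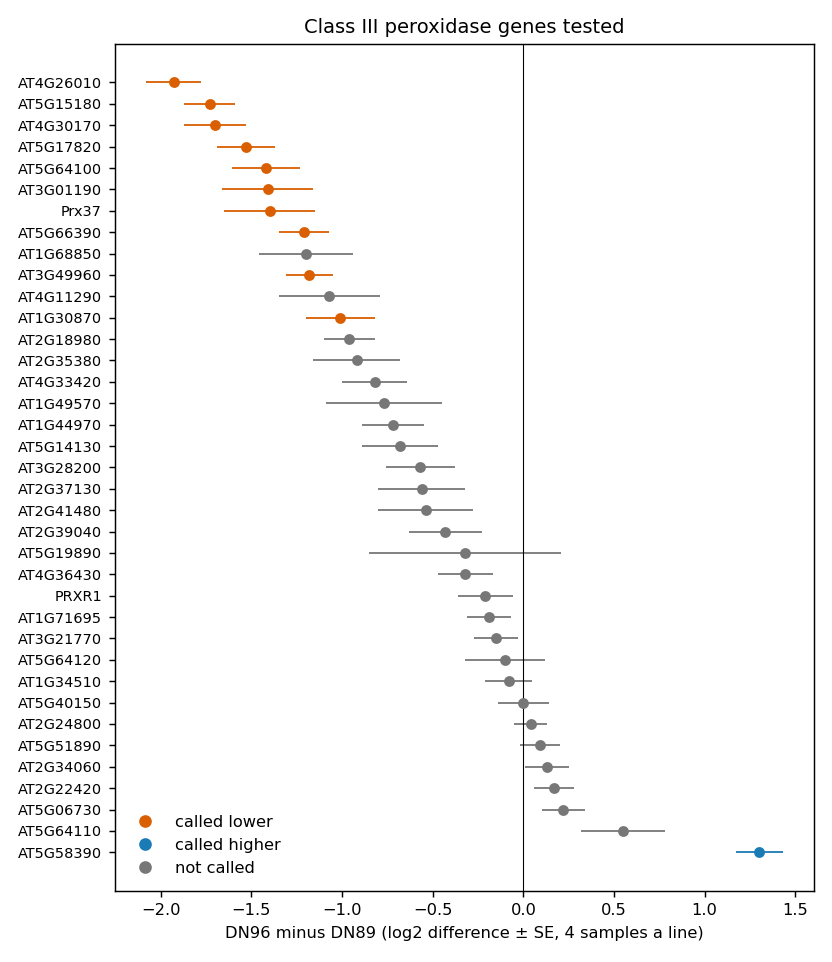
The log2 difference DN96 minus DN89 with its standard error for the 37 tested class III peroxidase genes, ordered by size, with 4 samples a line and temperature as a block. The 10 genes called lower reach from -1.93 to -1.01, and AT5G58390 at 1.30 is the gene called higher.

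The named genes below are described by what they encode and were not tested as groups. The wall families that were listed by symbol, expansins (12 tested) and XTH (6 tested), had median line differences of 0.01 and -0.08. HRGP1, which encodes a hydroxyproline-rich glycoprotein, was at 7.36 and 7.03 in warm DN89 and at 6.36 and 4.94 in warm DN96. In the cold it was at 5.94 and 6.13 in DN89 and at 4.67 and 4.53 in DN96. The warm DN96 samples differed from each other by more than the gap between the lines' nearest samples, and the difference of -1.49 ± 0.27 (limma adjusted p = 0.0329) lost its call when single samples were left out.

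AT1G23720, an extensin-like gene, was at 6.94 and 7.20 in warm DN89 and at 5.75 and 5.33 in warm DN96. Its cold values were 6.04 and 5.84 in DN89 and 4.98 and 4.53 in DN96. The lines stood apart by about the same amount at both temperatures, with a difference of -1.36 ± 0.16 (limma adjusted p = 0.00786). HRGP1 was read by the probe set 251843_x_at and AT1G23720 by 265169_x_at. How far these probe sets share signal with similar genes was not tested. AT4G38080, of the hydroxyproline-rich glycoprotein family, was lower by -1.48 ± 0.17. SBT4.12, which encodes a subtilisin-like protease, was at 9.24 and 9.25 in warm DN89 and at 7.53 and 7.53 in warm DN96, and at 7.75 and 7.5 against 6.83 and 6.56 in the cold. Its 2 warm samples of each line were nearly equal, and the difference was -1.32 ± 0.17 (limma adjusted p = 0.0113). The pectin methylesterase-type gene AT5G04960 was lower by -1.32 ± 0.20.

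AT3G22620, which encodes a GPI-anchored lipid transfer protein, was at 9.33 and 9.32 in warm DN89 against 8.59 and 7.53 in warm DN96. In the cold it was at 10.34 and 10.30 against 8.89 and 8.44. It was higher in the cold than in the warm within each line, and DN96 was the lower line at both temperatures. The difference was -1.46 ± 0.22 (limma adjusted p = 0.0186). AT2G48130, a second gene of this class, differed by -1.60 ± 0.23, and AT5G37690, which encodes a GDSL-type lipase, by -1.34 ± 0.17.

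Of the other named genes, AT3G23090, whose synonym in the reference table is WDL3 and which encodes a microtubule-associated protein, was lower by -1.38 ± 0.12 (limma adjusted p = 0.00618). AT5G44380, of the berberine bridge enzyme-like family, was lower by -1.32 ± 0.19. GSTU25, a tau-class glutathione S-transferase gene and the gene called among 11 tested of the GST family, was at 7.24 and 6.93 in warm DN89 and at 6.30 and 5.56 in warm DN96. In the cold it was at 10.18 and 9.97 in DN89 and at 8.63 and 8.78 in DN96. Both lines had more of this transcript in the cold, and DN96 was lower by -1.26 ± 0.17 (limma adjusted p = 0.0123). AT1G30750 (-1.46) and AT1G54540 (-1.44) complete the 20 named genes together with AT4G33720.

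AT4G33720 had the largest line difference and followed another pattern. It encodes a protein of the family of pathogenesis-related protein PR1. It stood at 9.28 and 9.42 in warm DN89 against 4.69 and 5.75 in warm DN96, and at 5.70 and 7.10 against 4.47 and 5.26 in the cold. The wild type ranged from 4.54 to 5.62 in the warm and from 4.01 to 5.49 in the cold, so that it was DN89 that stood above the wild type, by 4.13 ± 0.46 in the warm (limma adjusted p = 0.000995). DN96 differed from the wild type by 0.00 ± 0.46 in the warm. The line difference was -2.83 ± 0.56, 7.12-fold, with an adjusted p of 0.0448, and leaving out single samples gave adjusted p-values from 0.0292 to 0.156.

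**Figure D3:**
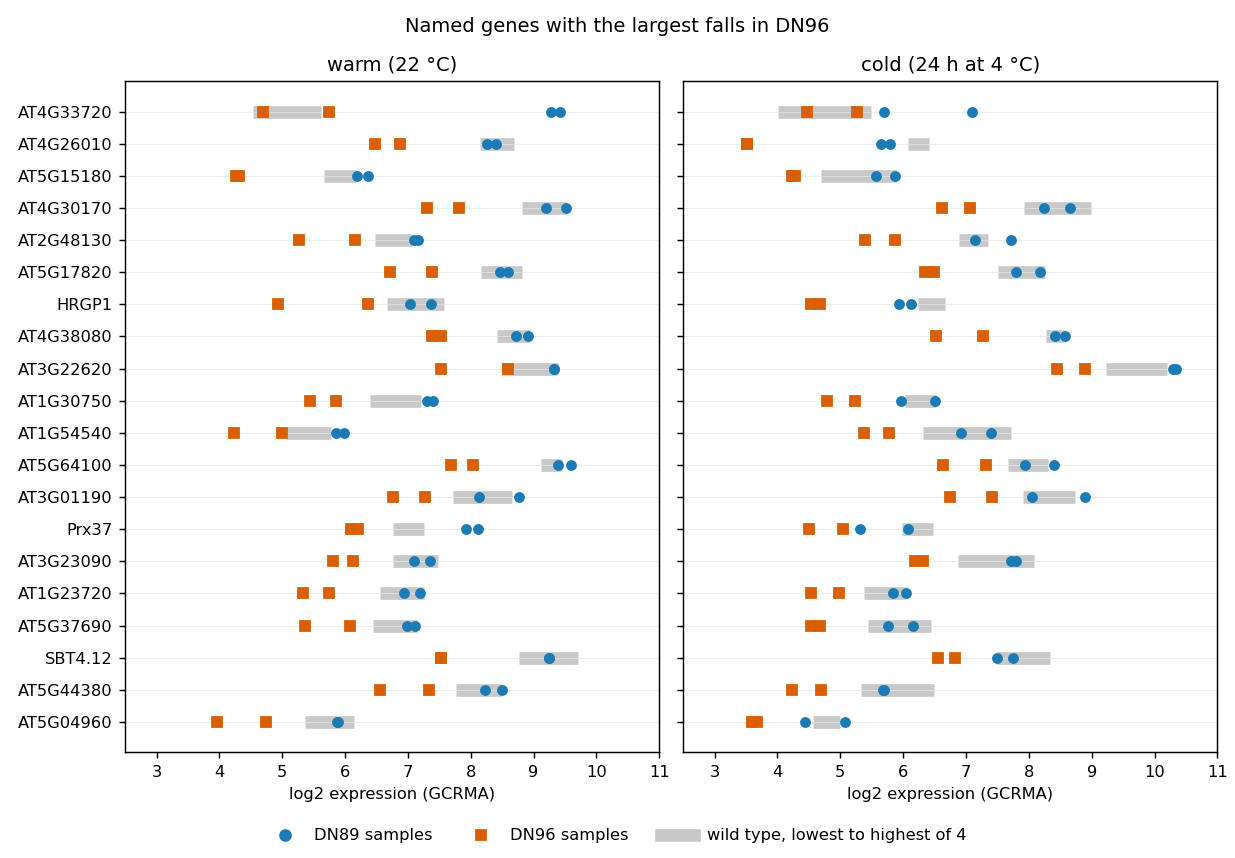
Log2 expression of the 20 named genes with the largest falls in DN96, in the warm (left) and the cold (right), with circles for the DN89 samples, squares for the DN96 samples and grey bars from the lowest to the highest of 4 wild-type samples. DN89 lies within or near the grey bars for most genes and DN96 below them, whereas for AT4G33720 in the warm DN89 lies above the bar at 9.28 and 9.42.

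For most of the 127 features the wild type was nearer to DN89. The wild-type mean was nearer the DN89 mean than the DN96 mean for 116 of the 127 in the warm and for 118 in the cold. The median difference from the wild type was 0.20 in DN89 and -1.16 in DN96 in the warm, and -0.02 and -1.22 in the cold. Both DN96 samples lay below all 4 wild-type samples for 113 features in the warm and 112 in the cold, and both DN89 samples lay above all 4 for 23 and 11. Of the 127, 63 (49.6%) were called lower in DN96 than in the wild type in the warm, where 0.7% of all features were, and 80 (63.0%) in the cold, where 1.87% were. AT4G33720 and the unnamed probe set 259290_at were called higher in warm DN89 than in the wild type, against 0.0206% of all features, and 259290_at also in cold DN89, against 0.336%. These counts and shares use the DN96 and DN89 samples that chose the 127 and are a description. The counts of features nearer to DN89, or with samples apart from the wild type, were not made over all features. The 2 lines share the wild-type samples.

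The tissue is labelled as aerial, and 3 of 7 root and root hair markers were measured, none of which met the call rule. PYK10, which encodes a beta-glucosidase abundant in roots, was at 12.30 and 12.32 in warm DN89 against 11.21 and 11.43 in warm DN96, and at 11.08 and 11.11 against 10.58 and 10.38 in the cold. It was lower in every DN96 sample, by -0.80 ± 0.12 (limma adjusted p = 0.0172), under the 2-fold minimum. EXPA7 (-0.74 ± 0.23, adjusted p = 0.172) and EXPA18 (-0.38 ± 0.16, adjusted p = 0.298), expansin genes of root hair cells, were near the detection level, between 2.79 and 4.51 in the 8 samples. The summed level of the 3 markers, nearly all of it from PYK10, was 12.31 to 12.33 in warm DN89, 11.22 to 11.44 in warm DN96, 11.09 to 11.13 in cold DN89 and 10.40 to 10.60 in cold DN96. In the wild type it was 11.61 to 12.22 in the warm and 10.65 to 11.28 in the cold. DN96 lay below the wild type and DN89 at both temperatures, and the part of root tissue in the result was not tested. In these whole-shoot samples, fewer cells of a type and less RNA per cell cannot be told apart.

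Of markers for other tissues, 1 of 6 for photosynthetic leaf tissue and 1 of 4 for guard cells and trichomes were tested. RCA, which encodes Rubisco activase of photosynthetic tissue, differed by 0.06 ± 0.13 (limma adjusted p = 0.892) and stood between 12.83 and 13.77 in all 8 samples. FMA, a regulator of guard cell formation, differed by 0.04 ± 0.17 (adjusted p = 0.944). The median over 67 tested plastid-encoded genes was 0.05 and that over 7 nuclear photosynthesis genes was 0.12. Markers of flowers, seeds and dividing cells had no tested member. The difference between 3′ and 5′ probe sets of actin, a measure of RNA integrity, was 1.2 to 1.88 in DN89 and 1.22 to 1.75 in DN96, and array medians ran from 4.98 to 5.08. These ranges of the lines overlapped.

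Classical CBF target genes were measured for 4 of 13 list members, and LTI30 was called. LTI30, a dehydrin gene, stood at 7.59 and 7.10 in warm DN89 and at 6.32 and 6.19 in warm DN96. In the cold it rose to 13.16 and 13.64 in DN89 and to 12.27 and 12.40 in DN96. The wild type was at 8.15 ± 0.25 in the warm and 13.50 ± 0.07 in the cold (SD, n = 4), so that warm DN89 lay between the wild type and warm DN96. The line difference was -1.08 ± 0.15 (limma adjusted p = 0.0126). It was -0.94 under quantile normalization, which ended the call, and leaving out single samples gave adjusted p-values from 0.0263 to 0.0568 and differences between -1.11 and -0.98 where the call was lost. Against the wild type, DN96 was lower by -1.89 ± 0.18 in the warm (adjusted p = 0.000128) and by -1.16 ± 0.18 in the cold (adjusted p = 0.00164). DN89 differed from it by -0.80 ± 0.18 (adjusted p = 0.607) and by -0.10 ± 0.18 (adjusted p = 0.824).

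The other measured targets showed smaller differences. COR47, also a dehydrin gene, was at 10.72 and 10.45 in warm DN89 against 10.30 and 9.68 in warm DN96, and at 13.18 and 13.39 against 12.84 and 12.70 in the cold. The samples of the lines stood apart at both temperatures, but the difference of -0.55 ± 0.15 did not pass the threshold (limma adjusted p = 0.133). COR15A and COR15B, which encode cold-protective proteins of the chloroplast stroma, differed by -0.30 ± 0.24 (adjusted p = 0.617) and -0.12 ± 0.16 (adjusted p = 0.783). COR15A was at 11.56 and 12.15 in cold DN89 and at 11.68 and 10.74 in cold DN96, where the lines overlapped.

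The probe set 246481_s_at, which the annotation lists for both KIN2 and KIN1 so that neither gene was measured alone, had one of the 3 largest falls. It stood at 7.17 and 5.42 in warm DN89 against 3.96 and 3.77 in warm DN96, and at 13.24 and 13.50 against 12.40 and 11.19 in the cold. The wild type was at 8.94 ± 0.07 in the warm and 13.80 ± 0.11 in the cold (SD, n = 4). In the warm both lines lay below every wild-type sample, DN89 by -2.64 ± 0.36 (limma adjusted p = 0.00946) and DN96 by -5.07 ± 0.36 (adjusted p = 3.86e-06). In the cold DN96 lay below the wild type by -2.01 ± 0.36 (adjusted p = 0.0042) and DN89 by -0.43 ± 0.36 (adjusted p = 0.57). The line difference was -2.0 ± 0.40 with an adjusted p of 0.0482, and leaving out single samples gave adjusted p-values from 0.0397 to 0.156.

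**Figure D4:**
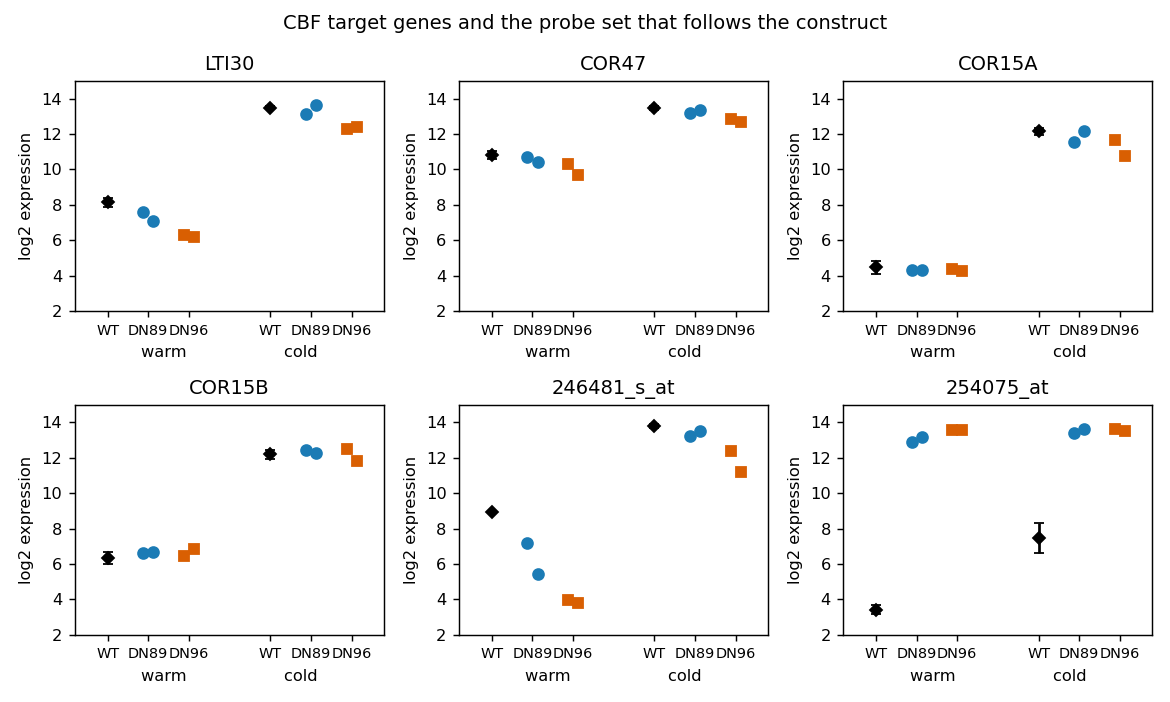
Log2 expression of 4 CBF target genes, of the probe set 246481_s_at and of the probe set 254075_at that follows the construct, with diamonds for the wild-type mean ± SD (n = 4), circles for DN89 samples and squares for DN96 samples, warm on the left and cold on the right of each panel. LTI30 and 246481_s_at are lower in DN96 at both temperatures, while COR15A and COR15B of the lines overlap in the warm, and 254075_at is high in both lines.

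Dehydrin and LEA genes as a wider list, which overlaps the targets above, had 6 members tested, all 6 below 0 with a median of -0.73, and LTI30 was the one called. DI21, a drought-induced gene, was at -0.96 ± 0.18 (limma adjusted p = 0.0356), just under the 2-fold minimum, and LEA4-5 at -0.90 ± 0.28 (adjusted p = 0.184). Both were chosen after their values were seen.

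The 127 features were then followed in samples outside the line comparison, the warm overexpressors and the wild type. Those samples entered the choice of the features through the detection filter and the pick of the brightest probe set of a gene only. In CBF2OX, 24 of the 127 (18.9%) were called lower than in the warm wild type, where 1.3% of all features were, and 4 (3.15%) higher, where 1.85% were. The median over the 127 in CBF2OX was -0.45, and 100 of them lay below 0. In CBF3OX 28 (22.0%) were called lower against 1.97% of all features, and 8 (6.30%) higher against 2.06%. In CBF1OX 9 (7.09%) were called lower against 1.13%, and 6 (4.72%) higher against 2.03%. The median was -0.45 in CBF3OX and -0.10 in CBF1OX, against 0.00 and 0.01 over all features. The overexpressors share the warm wild type.

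Of all features, 1.13% were called lower in CBF1OX, 1.3% in CBF2OX and 1.97% in CBF3OX. The share called lower in at least 1 overexpressor was not counted. Of the 10 peroxidase genes called lower in DN96, 3 were called lower in at least 1 overexpressor. AT4G26010 was not, at -0.14 in CBF1OX, -0.62 in CBF2OX and -0.76 in CBF3OX, nor was Prx37, at -0.04, -0.27 and -0.22. AT5G15180 was lower by -1.32 ± 0.24 in CBF1OX, by -1.38 ± 0.24 in CBF2OX and by -2.03 ± 0.24 in CBF3OX (limma adjusted p from 8.96e-06 to 0.000956). In CBF1OX its lines stood far apart, at 6.07 and 5.75 in G5, which overlapped the warm wild type, and at 3.49 and 3.13 in G39, and the standard error covers the spread within lines only. Its CBF2OX lines were at 3.75 and 4.26 in E2 and at 5.24 and 4.95 in E24. AT4G30170 was lower by -1.14 ± 0.20 in CBF2OX and by -1.18 ± 0.20 in CBF3OX. AT3G01190 was lower by -1.11 in CBF2OX and by -1.0 in CBF3OX. AT4G33720 was lower by -2.40 ± 0.33 in CBF2OX (adjusted p = 7.83e-05). Its CBF2OX samples were at 2.70 and 2.86 in E2 and at 2.86 and 2.86 in E24, under the detection level of 4, which limits the size of that fall. LTI30 and 246481_s_at went the other way, with rises of 4.99 ± 0.12 and 4.90 ± 0.10 in CBF2OX, as did the unnamed probe sets 253416_at and 254232_at. The summed root markers, again nearly all PYK10, stood at 11.28 to 11.99 in CBF2OX and 11.31 to 11.99 in CBF3OX, against 11.61 to 12.22 in the warm wild type. In CBF1OX they were at 12.14 to 12.47 in line G5 and at 11.36 to 11.42 in line G39, where the mean of the 127 features was 7.51 to 7.68 and 6.73 to 6.75. Their part in the overexpressor values was not tested.

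The wild type's own response to cold split the 127 features. Cold lowered 34 of them (26.8%), where 9.72% of all features fell, and raised 13 (10.2%), where 8.76% rose, and the median was -0.47 against -0.04 over all features. AT4G26010 fell by 2.12 ± 0.14 and AT5G64100 by 1.29 in the cold wild type. GSTU25 rose by 3.38 ± 0.18 and LTI30 by 5.36 ± 0.12. All 4 were lower in DN96 at both temperatures, as the rule that chose them requires.

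The line difference was also read over the features raised in all 3 overexpressors against the warm wild type, a list built from samples that do not enter the line difference. There were 199, of which 4 (2.01%) were called lower and 1 higher in DN96, against 0.871% and 0.0343% of all features. In the warm their median was 0.04, against 0.00 over all features, and 46.7% lay below 0 (48.1% of all). In the cold their median was -0.53, against -0.06, and 84.9% lay below 0 (58.0% of all). The difference between the cold and the warm line difference had a median of -0.50 over the list. No single member passed the limma test of that difference, which called 0 features. Of all features, 736 had an unadjusted p below 0.05 in that test, about the number expected without any difference. Of the 199, 62 (31.2%) were called lower in cold DN96 than in the cold wild type, where 1.87% of all features were, and 11 (5.53%) in cold DN89, where 0.137% were. The 4 called in the line difference were LTI30, 246481_s_at, 253416_at and 254232_at, and their count fell to 0 without DN96 warm replicate 4, DN89 cold replicate 2 or DN96 cold replicate 4, and to 1 without DN89 warm replicate 1 or DN89 cold replicate 1.

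**Figure D5:**
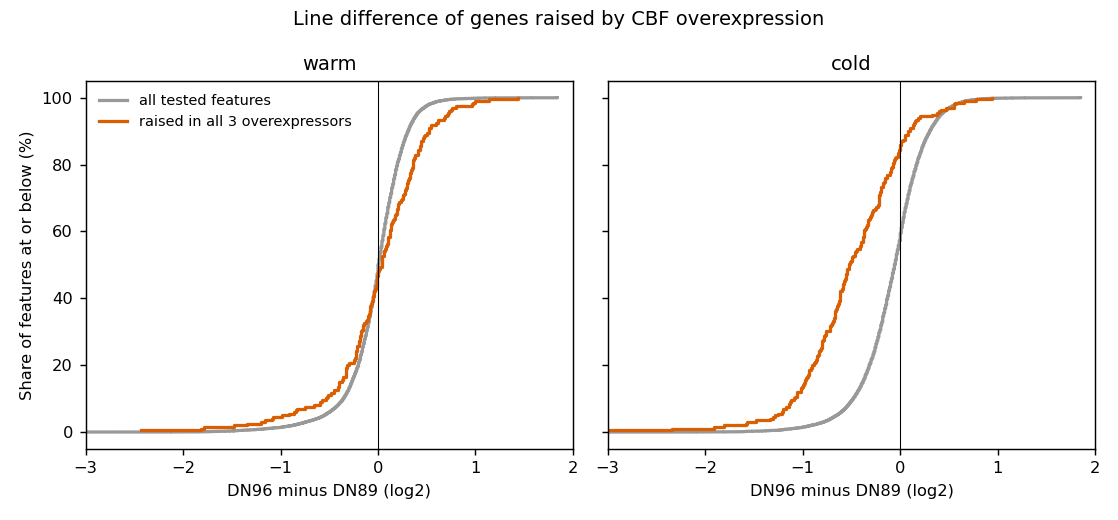
Cumulative share of features (vertical axis, %) by the log2 difference DN96 minus DN89 (horizontal axis, shown from -3 to 2) in the warm and the cold, for 199 features raised in CBF1OX, CBF2OX and CBF3OX and for all 14574 tested features. In the warm both curves cross 0 near one another (46.7% and 48.1%), and in the cold the list lies to the left, with 84.9% below 0 against 58.0%.

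Features lowered in all 3 overexpressors numbered 97, of which 9 (9.28%) were called lower in DN96, against 0.871% of all features. Their median line difference was -0.16, against -0.02 over all features. These 9 included AT5G15180, AT4G33720 and AT3G29410, the last named after its values were seen, and 6 unnamed probe sets. The count ranged down to 2 without DN89 warm replicate 1.

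The largest fall among the unnamed probe sets was that of 263096_at. It stood at 7.66 and 8.22 in warm DN89 against 5.24 and 5.45 in warm DN96, and at 7.57 and 6.83 against 5.49 and 5.23 in the cold. The DN96 samples did not reach above 5.49 and the DN89 samples not below 6.83, and the difference was -2.22 ± 0.23 (limma adjusted p = 0.00647), 4.65-fold.

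The 5 features higher in DN96 held 2 named genes. AT5G58390, itself a class III peroxidase gene, was at 5.49 and 5.83 in warm DN89 against 6.89 and 6.74 in warm DN96, and at 5.26 and 5.01 against 6.57 and 6.58 in the cold. The wild type spread from 5.22 to 6.7 in the warm and from 4.32 to 6.41 in the cold, between and across the lines. The difference was 1.30 ± 0.13 (limma adjusted p = 0.00647). AT3G44970, a cytochrome P450 gene, was at 4.01 and 3.85 against 5.18 and 5.57 in the warm and at 4.62 and 3.97 against 5.55 and 4.92 in the cold. Its line difference was 1.19 ± 0.21 (adjusted p = 0.0311), and in CBF2OX it rose by 2.52 ± 0.18 over the warm wild type. The probe sets 250476_at (1.52 ± 0.26), which has no annotated gene, and 265091_s_at (1.38 ± 0.27), which the annotation lists for both AT1G03495 and AT1G03940, had the largest rises, and 253010_at (1.01), named after its values were seen, was the fifth.

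The 4 tested genes of anthocyanin and flavonol synthesis all lay above 0, with a median of 0.81, and were not called. DFR, which encodes dihydroflavonol reductase, was at 3.96 and 4.13 in warm DN89 and 4.94 and 5.21 in warm DN96, and at 5.41 and 4.71 against 7.43 and 6.25 in the cold. Its difference of 1.40 ± 0.29 had a limma adjusted p of 0.0505. UF3GT, a glycosyltransferase gene of the pathway, differed by 0.69 ± 0.13 (adjusted p = 0.0369), under the fold minimum. Both were chosen after their values were seen.

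The 62 named genes lay on all 5 nuclear chromosomes, with 11, 8, 15, 10 and 18 on chromosomes 1 to 5. No pair of these 62 were neighbours within 3 gene starts in the reference gene table. The 63 probe sets without an annotated gene and the 2 listed for several genes were not given a position. Whether any of them lie next to each other or to a named gene was not tested. Clustering among all 127 features therefore cannot be judged from these counts.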

How the data were processed

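Total RNA was amplified, biotinylated and hybridised to Affymetrix arrays, per the labels' protocols. The deposited values are log2 expression per probe set; the submitters' processing notes name GCRMA and limma without versions, and the range of 2.16 to 14.53 set the log base. GCRMA leaves dim probe sets at a floor, which held 11.6% of all values. Precision is limited by the number of arrays.

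Of 22810 probe sets, 13513 had 1 gene in the platform annotation, 503 several and 8730 none, and 64 controls were left out. Of the 13513, 13436 matched the reference gene table of assembly TAIR10.1, used for names and neighbours only. A gene with several probe sets was represented by the brightest. The filter kept 7894 named genes and 6680 other probe sets.

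R 4.3.3 with limma 3.58.1 (lmFit and eBayes) and statmod 1.5.0 ran the models; summaries and figures used Python 3.11.15, pandas 2.3.3, numpy 2.4.6 and matplotlib 3.10.9. The line difference came from an additive model of line and temperature on 8 samples. The contrasts at each temperature and the interaction came from group means of those 8, each line against the wild type from 16 samples, and the overexpressors and the wild-type cold response from the 20 samples without CBF2Δc. Tested on simulated data of 14574 features, the line model recovered 98% of log2 changes of 1.5 and 100% of changes of 2, with 1 false call. The simulated samples varied independently, with no effect shared by the samples of a line, and smaller changes were not simulated. These figures describe the model under those settings and cannot say how many of the calls made here are false.

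The members, lists and alternatives were chosen with earlier results of these data known. Named are the 20 largest falls among named genes, the named genes that rose, the measured classical CBF targets, up to 4 called members of other lists and any unnamed probe set among the 3 largest changes a direction. Same-numbered warm and cold samples deviated together with correlations from -0.039 to 0.082, so the numbers were not taken as pairs. With 2 samples a group, both numbers of a line give the same correlation, 0.049 in DN89 and 0.039 in DN96. The warm and cold actin differences were 1.53 and 1.2 in replicate 1 and 1.88 and 1.84 in replicate 2 of DN89. In DN96 they were 1.75 and 1.73 in replicate 3 and 1.23 and 1.22 in replicate 4. Shared handling of same-numbered samples was not tested. Alternatives covered the filter, scaling, probe set choice, samples in the fit, variance trend, a replicate block and leaving out each sample. Other lists without a call were clock, sugar transporter, jasmonate, heat shock, starch and gibberellin genes and gene families by symbol apart from GST. The galactinol, salicylic acid, abscisic acid and suberin lists had no tested gene. Promoter motifs and sequences were not analysed here.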

Additional observations from a re-analysis of the deposited data

Results flagged for a closer look

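Among 64 sets of 4 wild-type values (warm or cold) examined for the named features, 4 held a sample apart from the other 3 by Dixon's test, of which chance gives about 1 in 20 groups. COR15A was at 5.01 in warm wild-type replicate 1, against a median of 4.29 in the others. COR47 was at 13.29 in cold wild-type replicate 2, against 13.52. GSTU25 was at 6.73 in warm wild-type replicate 4, against 7.27. The unnamed probe set 250476_at was at 4.02 in warm wild-type replicate 4, against 3.35.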

How the results depend on the processing

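No alternative turned the direction of a named feature's line difference, and AT4G26010, AT5G15180 and AT3G23090 kept their call under every alternative and leave-out fit. Of the 127 features, between 9 and 127 were still lower at both temperatures over 17 alternatives and leave-out fits. The low end is the fit with no filter on low values, which gave 10 calls in the line difference, 9 lower and 1 higher at both temperatures, 3 in the warm, 2 in the cold, 36 for cold DN89 and 68 for warm DN96 against the wild type; the cause was not tested, and the next lowest, without DN89 warm replicate 1, kept 50. With a filter above 5, 66 features were called in the warm and 56 in the cold. Centring the arrays on their medians gave 9 features higher at both temperatures, 62 in the warm and 21 in the cold, and quantile normalization 9, 68 and 9, with 45 for cold DN89 against the wild type. All 28 samples in the fit gave 8 higher at both temperatures, 133 in the warm, 159 in the cold and 1 in the interaction. An adjusted p alone gave 262 calls in the line difference, 241 of them lower at both temperatures. The cause of these shifts was not tested. For the overexpressors, the fit with the replicate number as a block also merged the 2 lines of each construct into 1 group. It gave 266 calls in CBF1OX against 460 and 299 in CBF2OX against 458. The share of the block and of the merging in these drops was not tested. The 127 features stayed lower at both temperatures with the number as a block, where the correlation within numbers was -0.011. Each number belongs to 1 line there, so this block cannot take up a difference between the lines.

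Leaving out 1 sample gave 55 to 123 calls in the line difference, 54 to 120 features lower and 1 to 5 higher at both temperatures, and 0 to 0 in the warm and in the cold alone, where 1 line had a lone sample assumed to vary like the others. Against the wild type it gave 2 to 4 for warm DN89, 38 to 112 for cold DN89, 46 to 154 for warm DN96 and 264 to 439 for cold DN96. The 16 features with a DN96 mean under 4 at either temperature have little signal over background, which limits their fold differences.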
